A study of Homo sapiens with 38 samples.

Results

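Confluent IMR90 cells were compared with IMR90 cells held in low serum, which are both routes by which fibroblasts are brought to quiescence. IMR90 cells are human lung fibroblasts. The members were set by their labels: 4 confluent arrays against 4 low-serum arrays, 8 of the 38 arrays of the series. The choice was made with earlier results of these data known. Each state held 2 arrays of cells with the empty MLP vector and 2 arrays of cells with shp130, a short hairpin RNA against p130, the protein that RBL2 encodes. Low-serum cells were kept in 0.1% fetal bovine serum (FBS). The general medium held 10% FBS, and no other serum is given for the confluent cells, so density and serum differ together between the groups and their parts in a difference cannot be told apart. Growing vector and shp130 cells in the general medium (4 arrays), and confluent and low-serum cells with hairpins against RB (shRB) or p107 (shp107) (8 arrays), served for comparison. The study asked how suppression of RB, p107 or p130 alters expression in growing, quiescent and ras-senescent IMR90 cells. The labels give neither the time spent in a state nor whether the 2 replicates of a group came from separate cultures. The p-values then speak only to the scatter of these arrays, which may be technical.

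Quiescence is a reversible exit from the cell cycle. Fibroblasts enter it when growth factors are withdrawn and also when a dense monolayer forms, and p130 is the member of the RB family that is most abundant in quiescent cells. The genes described here belong to well-known circuits. NF-kB switches on chemokines and cytokines together with its own inhibitors. SREBP transcription factors raise cholesterol and fatty acid synthesis when cells take up little sterol, of which serum lipoproteins are the main supply in culture. SRF with its cofactor MRTF, and YAP with TEAD, drive cytoskeletal and matrix genes of spread, tense cells.

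The array values are deposited log2 values, 1 per probe set, and every level given here is on that scale. The array median lay between 3.31 and 3.38, and 22.2% to 23.8% of probe sets exceeded 5. The 2 confluent vector arrays differed most among the groups of experiment 1: their replicate correlation was 0.9795 and the SD of their difference over genes was 0.794, against 0.297 to 0.659 in the other groups. Of 15 fibroblast markers, 13 exceeded 5 on all 8 arrays, while none of 7 blood cell markers exceeded 5 on any of them (highest 3.92). For endothelial cells 9 of 10 markers never exceeded 5, and for epithelial cells 12 of 13. RBL2, the hairpin's target, read 8.47, 8.0, 8.29 and 8.34 on the vector arrays and 5.32, 5.86, 5.56 and 5.37 on the shp130 arrays, with low serum first in each line. RBL2 did not differ between the states (difference of -0.02 ± 0.19, adjusted p = 0.942), and the hairpin arrays carried the lower level in both.

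Of 8511 genes tested, 2855 (33.5%) differed between confluence and low serum at an adjusted p under 0.05 in limma, with Benjamini-Hochberg adjustment. Such genes are termed called. In these bulk samples, fewer cells that express a gene and less RNA per cell cannot be told apart. At confluence 1167 (13.7%) were higher and 1688 (19.8%) lower. The counts of each gene list below are to be read against these 2 shares. A further condition of at least 2-fold left 1227 genes (14.4%), 507 higher (5.96%) and 720 lower (8.46%). For 2416 genes (28.4%) the 4 confluent arrays did not overlap the 4 low-serum arrays. The median difference over all genes tested was -0.03. Differences are log2 values of confluent minus low serum, averaged over both lines and given ± SE.

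Each line was then tested on its own. Within vector cells (2 arrays against 2) 1810 genes (21.3%) were called, and within shp130 cells 1585 (18.6%). Higher calls made up 8.31% of all genes in vector and 7.8% in shp130 cells, and lower calls 13% and 10.8%. Genes called higher in both lines numbered 432, which is 61.1% of those of vector cells and 65.1% of those of shp130 cells. Genes called lower in both numbered 703, or 63.7% and 76.3%. A test of the difference itself called 0 genes, with 377 at an unadjusted p under 0.05 and a lowest adjusted p of 0.162. Leaving out the first confluent vector array gave 114 such genes, leaving out the second confluent shp130 array gave 24, and a variance model with trend and robust fitting gave 5. The absence of calls does not show that the lines respond alike. The counts within a line also moved: vector cells gave 1028 without the second low-serum array and 174 when only the 4 arrays compared were fitted, and shp130 cells gave 971 and 1018 without the first or the second low-serum array.

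**Figure D1:**
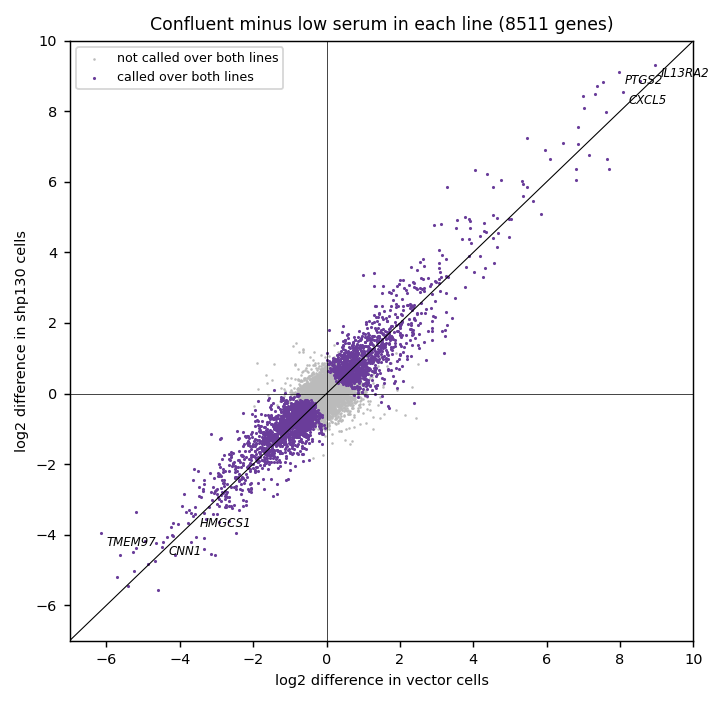
Confluent minus low serum in vector cells (x axis) and in shp130 cells (y axis), both as log2 differences, with 1 point per gene and the line of equality. The 2855 genes called over both lines are purple and 1157 of the 1167 called higher, and 1686 of the 1688 called lower, had the same sign in both lines.

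The chemokines and inflammatory cytokines rose most. Of 21 tested members of the list, 19 were called higher and 1 lower, with a median difference of 5.41 against -0.03 over all genes. The array set measured 25 members, and those that did not exceed 5 on at least 2 arrays were not tested. A member low in low serum could pass that filter through the confluent arrays, so the count and median can lean toward rises. The same limit applies to every list below of which some measured members were not tested. Of the 6 members that bind CXCR2, the receptor that draws neutrophils, all but CXCL8 had the largest rises of the list. CXCL5 read 3.38 and 3.50 (vector) and 3.47 and 3.55 (shp130) in low serum, then 12.14 and 10.90 (vector) and 12.10 and 12.04 (shp130) at confluence. Low-serum arrays therefore held CXCL5 at about the array median, and every confluent array lay far above it. The difference was 8.32 ± 0.20, or 319-fold (adjusted p = 8.4e-18).

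Their promoters are printed because 6 of these genes rose together and share 1 short NF-kB sequence close to the start. The windows below are RefSeq sequences (GRCh38.p14), read in the direction of the gene, with the letters GGAATTTCC in capitals.
CXCL1: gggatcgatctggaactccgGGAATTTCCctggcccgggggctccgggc
CXCL2: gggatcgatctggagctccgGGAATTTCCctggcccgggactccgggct
CXCL3: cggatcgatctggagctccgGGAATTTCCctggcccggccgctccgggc
CXCL5: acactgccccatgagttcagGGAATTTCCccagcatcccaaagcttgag
CXCL6: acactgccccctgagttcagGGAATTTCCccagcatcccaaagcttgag
CXCL8: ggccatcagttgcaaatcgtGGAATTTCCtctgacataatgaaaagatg
They lie at chr4:73869295-73869343 (CXCL1, plus strand), chr4:74099244-74099292 (CXCL2, minus strand), chr4:74038739-74038787 (CXCL3, minus strand), chr4:73998739-73998787 (CXCL5, minus strand), chr4:73836569-73836617 (CXCL6, plus strand) and chr4:73740458-73740506 (CXCL8, plus strand). All 6 genes sit in 1 cluster of chromosome 4. The sequences of CXCL1, CXCL2 and CXCL3, like those of CXCL5 and CXCL6, resemble each other well beyond the capitals. The 6 matches are therefore not independent of each other. Probe sets may also not keep such related genes apart, so the 6 rises need not be 6 separate measurements. The capitals begin between 77 and 91 bases before the start. On either strand, the letters GGAATTTCC occurred in 8 of 18 promoters of the list (44.4%), in 0 of 15 promoters of the cholesterol list and in 162 of 35116 promoter windows of 300 bases (0.461%). These letters were chosen after the data were seen. The wider NF-kB consensus, which overlaps them in 5 of the 6 genes, matched 9 of 18 promoters of the list (50%), 3 of 15 of the cholesterol list (20%) and 11.3% of all windows. TSLP, the list member that was called lower at confluence (-2.59), matched both the letters and the consensus.

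CXCL3 rose by 8.70 ± 0.27, CXCL2 by 8.18 ± 0.48, CXCL6 by 8.05 ± 0.29 and CXCL1 by 7.71 ± 0.56. CXCL8 (interleukin 8) started higher, at 7.67 and 7.20 (vector) and 6.87 and 6.43 (shp130) in low serum, and reached 13.20 and 12.31 (vector) and 12.43 and 12.90 (shp130). Its rise was 5.67 ± 0.47, or 50.9-fold (adjusted p = 4.89e-09). CCL20 and CCL7 attract other leukocytes, and CCL2 recruits monocytes. CCL20 rose by 6.36 ± 0.71 and CCL7 by 2.46 ± 0.36, while CCL2, already at 9.06 to 10.36 in low serum, rose by 3.0 ± 0.44 to between 12.26 and 13.38.

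Interleukins followed the chemokines. IL6, the main cytokine of the acute phase response, read 5.35 and 4.09 (vector) and 4.58 and 5.02 (shp130) in low serum. At confluence it read 13.38 and 10.12 (vector) and 12.72 and 13.08 (shp130), so the groups were far apart and the second vector array was the lowest of the confluent arrays. The rise of IL6 was 7.56 ± 0.59 (189-fold, adjusted p = 2.06e-09). IL1B and IL1A, the apical inflammatory interleukins, rose by 7.20 ± 0.55 and 5.41 ± 0.69. IL11 rose by 5.48 ± 0.35, and LIF, which like IL6 and IL11 signals through gp130, rose by 2.83 ± 0.30. IL24 rose by 5.19 ± 0.92, from 3.79 to 4.13 in low serum to 12 and 4.18 (vector) and 9.63 and 10.81 (shp130) at confluence. On the second confluent vector array IL24 therefore remained near its low-serum level. CSF3, the granulocyte growth factor, showed the same array at 3.82 beside 10.15, 9.46 and 8.35, and its groups overlapped (3.97 ± 0.72, adjusted p = 0.000179).

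TSLP, an epithelial-type cytokine that acts on dendritic cells, went the other way. It read 10.23, 9.49, 9.57 and 9.53 in low serum and 6.44, 8.33, 7.31 and 6.40 at confluence, without overlap, a fall of 2.59 on the log2 scale (SE 0.45, adjusted p = 0.00011). CXCL12, the homing chemokine of mesenchymal cells, was not called (-0.13 ± 0.41, adjusted p = 0.842). The second confluent vector array, the lowest for many of these genes, moved the size of the values more than the count. Without it 19 members were called higher with a median of 5.89, without the first confluent vector array 18 with a median of 3.90, and in shp130 cells alone 18 with a median of 6.01.

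**Figure D2:**
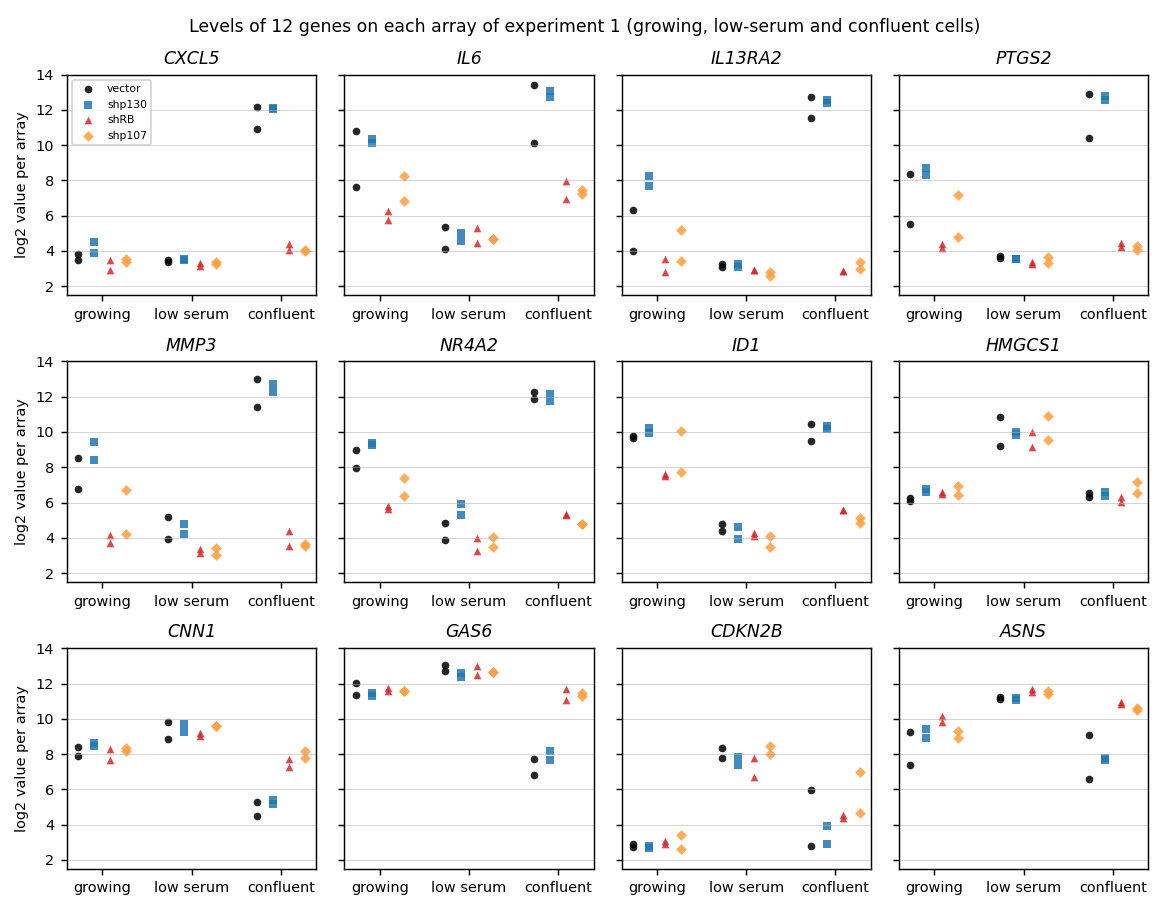
Log2 value on each array (y axis) of 12 genes in growing, low-serum and confluent cells of the vector, shp130, shRB and shp107 lines, with 1 point per array. CXCL5 lies near 3.5 in low serum and at 10.90 to 12.14 on the 4 confluent vector and shp130 arrays, whereas HMGCS1 lies near the growing cells' values at confluence in every line.

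IL13RA2, the decoy receptor for interleukin 13 and a gene that ERK signalling raises, had the largest rise among the genes named. It read 3.28 and 3.11 (vector) and 3.08 and 3.24 (shp130) in low serum and 12.75 and 11.54 (vector) and 12.38 and 12.58 (shp130) at confluence. The difference was 9.14 ± 0.38, or 563-fold (adjusted p = 8.08e-14), from low-serum values at about the array median. BCL2A1, an anti-apoptotic NF-kB target, rose by 6.77 ± 0.44, and KYNU, an enzyme of tryptophan breakdown that cytokines induce, by 6.42 ± 0.16. The complement component C3 rose by 5.30 ± 0.35. PTX3, an acute phase protein that inflammatory cytokines also induce, fell by 2.73 on the log2 scale (SE 0.28), from between 12.30 and 12.48 to between 8.56 and 10.62.

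NF-kB's feedback genes rose by less. Of 15 tested genes for subunits and feedback targets 10 were called higher and 0 lower, with a median of 1.42. TNFAIP3 (A20), which shuts the pathway off, read 5.01, 4.83, 4.67 and 4.85 in low serum and 10.37, 8.53, 9.73 and 9.89 at confluence, a rise of 4.79 ± 0.32 (27.6-fold, adjusted p = 1.79e-10). The inhibitor NFKBIA (IkB-alpha) rose by 2.78 ± 0.24, NFKBIZ by 2.71 ± 0.25, and the adaptor IRAK2 by 3.53 ± 0.30. TNFAIP6, a secreted hyaluronan-binding protein of inflamed tissue, rose by 5.47 ± 0.43. Among the subunits, NFKB1 rose by 1.33 ± 0.30 and REL by 1.16 ± 0.20, whereas RELA (0.15 ± 0.20, adjusted p = 0.591) and RELB (0.54 ± 0.23, adjusted p = 0.0725) were not called, although RELB was without the second confluent shp130 array (0.87, adjusted p = 0.00257). SOD2, the mitochondrial superoxide dismutase, stood at 6.86 on the first confluent shp130 array and between 10.94 and 11.17 on the other confluent arrays, and was not called (0.87 ± 0.57, adjusted p = 0.258). Without that array SOD2 was called higher (1.91, adjusted p = 0.000743).

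Calls in the prostaglandin pathway fell on enzymes and receptors alike. PTGS2 (COX-2), the inducible cyclooxygenase, read 3.58, 3.74, 3.57 and 3.55 in low serum and 12.92, 10.38, 12.79 and 12.57 at confluence. It rose by 8.55 ± 0.51, or 376-fold (adjusted p = 4.17e-11), from low-serum values near the array median. PLA2G4A, which frees arachidonic acid, rose by 4.57 ± 0.36, and PTGES, which makes prostaglandin E2, by 4.46 ± 0.38. The E2 receptors PTGER2 and PTGER4 fell by 1.98 (SE 0.40) and 1.15 (SE 0.36) on the log2 scale, while PTGFR, the receptor for prostaglandin F2-alpha, rose by 1.40 ± 0.28. PTGER3 and the E2 synthases PTGES2 and PTGES3 were not called (-0.07 ± 0.18, -0.04 ± 0.19 and -0.02 ± 0.12). PTGER4 rests on the second confluent shp130 array, without which its adjusted p was 0.118. In all, 6 of 13 members were called higher and 2 lower (median 0.38, which was 0.73 without the first and 0.07 without the second confluent vector array).

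Matrix proteases were the next group, with 10 of 19 members called higher and 2 lower (median 0.90). MMP3 (stromelysin) read 5.20, 3.93, 4.23 and 4.79 in low serum and 12.99, 11.39, 12.27 and 12.71 at confluence, a rise of 7.80 ± 0.45 (223-fold, adjusted p = 2.42e-11). MMP1, the interstitial collagenase, rose by 4.04 ± 0.27 to between 12.29 and 13.08. The plasminogen activators PLAT and PLAU rose by 2.57 ± 0.26 and 1.69 ± 0.15, and cathepsin K (CTSK) by 2.76 ± 0.26. Neither the gelatinase MMP2 (0.05 ± 0.20, adjusted p = 0.878) nor the inhibitor TIMP1 (0.18 ± 0.13, adjusted p = 0.292) was called.

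Growth factors that act through the EGF receptor and genes of the ERK pathway also rose. Of 10 EGF-family genes measured 6 were tested, of which 4 were called higher and 1 lower (median 1.59). As in the chemokine list, members low in low serum could pass the filter through the confluent arrays. EREG (epiregulin) read 3.20, 3.11, 3.28 and 3.78 in low serum and 10.32, 10.29, 10.40 and 10.17 at confluence. The 4 confluent values lay within 0.23 of each other, and the rise was 6.95 ± 0.17 (124-fold, adjusted p = 8.4e-18). NRG1, a ligand of ERBB3 and ERBB4, rose by 3.72 ± 0.44, HBEGF by 1.80 ± 0.29 and EGFR itself by 1.38 ± 0.28, while the receptor ERBB2 fell by 1.08 (SE 0.20) on the log2 scale. Of 16 genes that report on or restrain ERK signalling 9 were called higher and 1 lower (median 0.75), among them SPRY1 (2.94 ± 0.36), SPRY4 (2.55 ± 0.36) and the phosphatases DUSP1 (1.23 ± 0.14) and DUSP6 (0.83 ± 0.19). IL13RA2, given above, is a member of that list too.

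Of 20 immediate early genes tested, 10 were called higher and 3 lower (median 0.77), and 5 lower without the first confluent vector array. NR4A2, an orphan nuclear receptor, read 4.83, 3.87, 5.28 and 5.94 in low serum and 11.86, 12.27, 12.16 and 11.76 at confluence, a rise of 7.03 ± 0.29 (131-fold, adjusted p = 7.08e-14). FOS rose by 2.47 ± 0.24, ATF3 by 2.18 ± 0.23, KLF10 by 2.14 ± 0.20 and EGR1 by 1.54 ± 0.23. The AP-1 partner JUN was not called (0.23 ± 0.12, adjusted p = 0.133), except after quantile normalization (0.31, adjusted p = 0.0413). BHLHE40, a transcriptional repressor of the clock, fell by 2.42 (SE 0.28) on the log2 scale, KLF2 by 1.65 (SE 0.18) and KLF6 by 1.03 (SE 0.15), so that members of the KLF family went both ways.

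Of 14 BMP ligands, receptors and ID genes 7 were called higher and 3 lower at confluence. BMP signals induce the ID genes, of which ID1, ID3 and ID4 (2.06 ± 0.51) were called and ID2 (0.84 ± 0.36, adjusted p = 0.0772) was not. ID4 lost its call when only the arrays compared were fitted (adjusted p = 0.0914), and ID2 was called without the first confluent vector array (1.30, adjusted p = 0.00542). ID1, an inhibitor of helix-loop-helix factors, read 4.81, 4.39, 3.96 and 4.63 in low serum and 9.47, 10.44, 10.35 and 10.15 at confluence. The groups were far apart, and the rise was 5.65 ± 0.34 (50.3-fold, adjusted p = 3.87e-11). ID3 rose by 5.66 ± 0.30 and BMP2 by 6.42 ± 0.54, while the ligand BMP4 fell by 2.67 (SE 0.41) and the ligand GDF5 fell by 0.89 (SE 0.19) on the log2 scale. The receptor BMPR2 was the remaining lower call (-0.68 ± 0.25, adjusted p = 0.0412), which 9 of 15 alternatives did not keep (adjusted p from 0.0543 to 0.963, the highest with the mean of all probe sets). GDF15, a stress-induced cytokine of the same superfamily, rose by 4.10 ± 0.23. Growing cells read between 9.63 and 10.20 for ID1 and between 10.73 and 11.25 for ID3, which overlaps the range of the confluent arrays for both genes. In the TGF-beta list, the inhibitory SMAD7 rose by 2.70 ± 0.35 and the co-repressor TGIF1 by 2.35 ± 0.20, and LTBP2, a latent TGF-beta binding protein, fell by 2.82 (SE 0.31) on the log2 scale.

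All 6 tested metallothioneins, small proteins that bind zinc and copper, were called higher (median 2.23). MT1F read 7.60, 7.69, 8.46 and 8.71 in low serum and 12.11, 10.72, 11.21 and 12 at confluence, a rise of 3.39 ± 0.25 (adjusted p = 1.18e-09). MT2A rose by 1.94 ± 0.13 to between 12.85 and 13.31, while growing cells read between 12.92 and 13.08. Near-identical copies make up this family, so probe sets may not keep its members apart.

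Several single genes also rose, by amounts from 1.95 (FGF2) to 7.91 (RGS5). RGS5, a regulator of G-protein signalling best known from pericytes, rose by 7.91 ± 0.28. STC1 (stanniocalcin), a secreted regulator of calcium and phosphate, rose by 7.15 ± 0.28. PDK4, which diverts pyruvate away from oxidation and is a FOXO target, read 3.42, 3.07, 3.45 and 3.23 in low serum and 9.03, 11.03, 10.44 and 8.99 at confluence. It rose by 6.58 ± 0.30 (95.8-fold, adjusted p = 5.79e-13), and growing cells stayed at 3.47 to 3.77. IGFBP2, an IGF carrier, rose by 4.40 ± 0.45, and the growth factors FGF7 and FGF2 by 2.78 ± 0.38 and 1.95 ± 0.23. TCF21, a transcription factor of mesenchymal progenitors, rose by 3.89 ± 0.29 from between 6.72 and 7.99 to between 11.10 and 11.97.

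**Figure D3:**
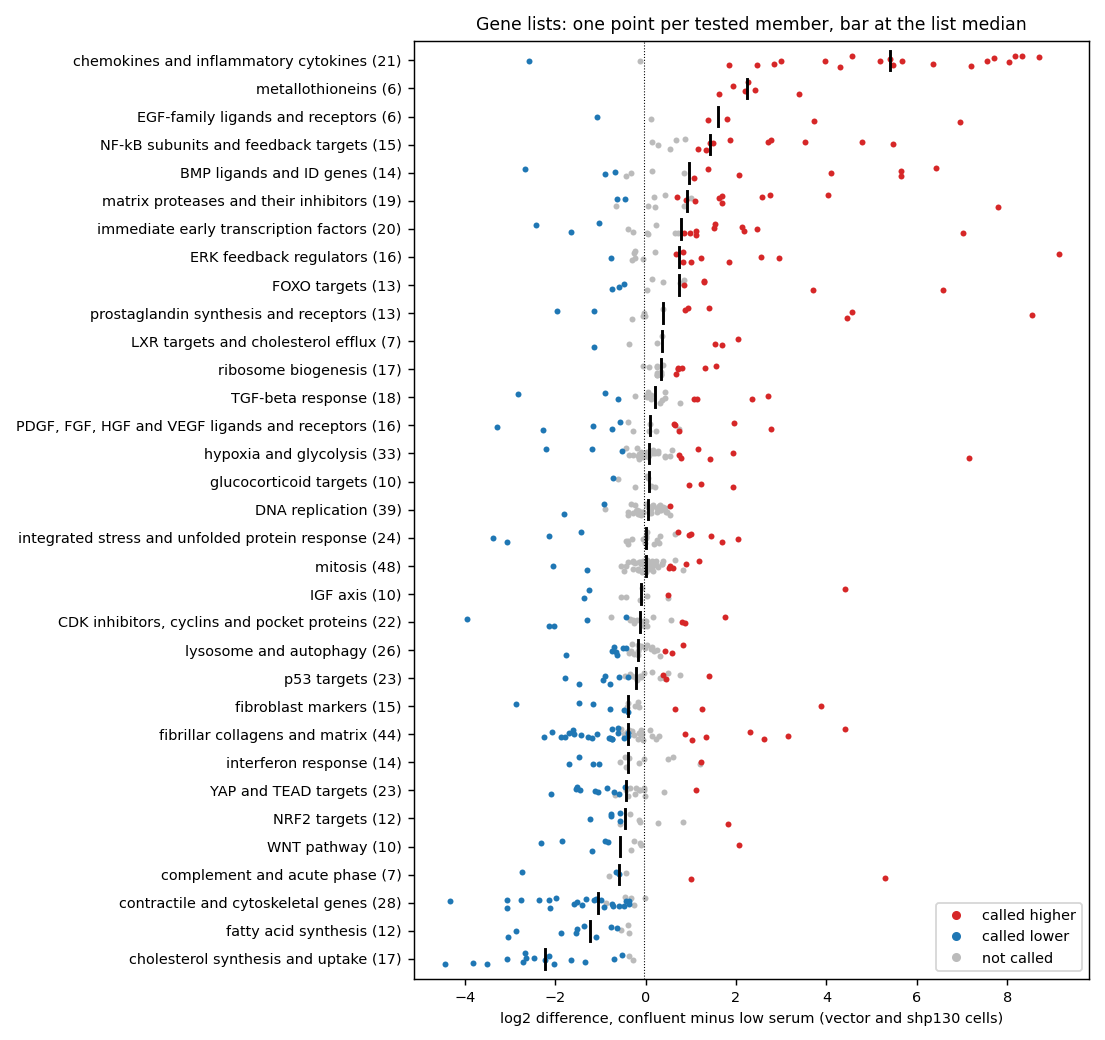
Log2 difference of confluent minus low serum (x axis, vector and shp130 cells) for each tested member of each gene list with at least 6 members, coloured by call, with a bar at the list median and a dotted line at the median of all genes tested (-0.03). The chemokine list stands at 5.41 and the cholesterol list at -2.23, the ends of the range of medians.

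Cholesterol synthesis had the lowest median of the lists. Of 17 tested members 15 were called lower and 0 higher, with a median of -2.23. The enzymes are best followed along the pathway. ACAT2, the acetyl-CoA acetyltransferase that supplies its first step, read 9.46, 11.01, 10.30 and 9.42 in low serum and 5.44, 5.72, 5.50 and 5.75 at confluence. It fell by 4.44 (SE 0.30, 21.8-fold, adjusted p = 2.89e-10). HMGCS1, which forms HMG-CoA, read 9.21, 10.82, 9.98 and 9.82 and then 6.54, 6.31, 6.59 and 6.36. It fell by 3.51 (SE 0.30, 11.4-fold, adjusted p = 7.93e-09).

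The confluent values of both enzymes were tightly grouped and the second low-serum vector array was the highest of its group. Further down the pathway, IDI1 fell by 3.07 (SE 0.26) and FDPS, which makes farnesyl diphosphate, by 2.65 (SE 0.22) on the log2 scale. SQLE, the epoxidase that commits squalene to sterols, fell by 2.48 (SE 0.20), and LSS, which closes the sterol rings, by 2.13 (SE 0.22). MSMO1 fell by 2.02 (SE 0.18), SC5D by 2.23 (SE 0.20) and DHCR7, which yields cholesterol, by 2.72 (SE 0.27). INSIG1, the sterol-sensing anchor of SREBP, fell by 3.81 (SE 0.30) and STARD4, a cholesterol carrier, by 2.66 (SE 0.38). TMEM97, a sterol-regulated membrane protein outside the list, fell by 5.05 (SE 0.32), from between 11.24 and 11.96 to 4.50 and 5.95 in vector cells and 7.77 and 7.53 in shp130 cells.

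HSD17B7 (-0.29 ± 0.14, adjusted p = 0.115) and the transcription factor SREBF2 (-0.36 ± 0.15, adjusted p = 0.0821) were the members not called. Growing cells lay nearer the confluent than the low-serum cells: HMGCS1 read between 6.10 and 6.75 in them and ACAT2 between 6.49 and 6.89. The sterol regulatory element TCACNCCAC, searched on both strands, was found in 1 of 15 promoter windows of the list (SREBF2) and in 1.13% of all windows, and this says only that those letters are not in the other windows.

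**Figure D4:**
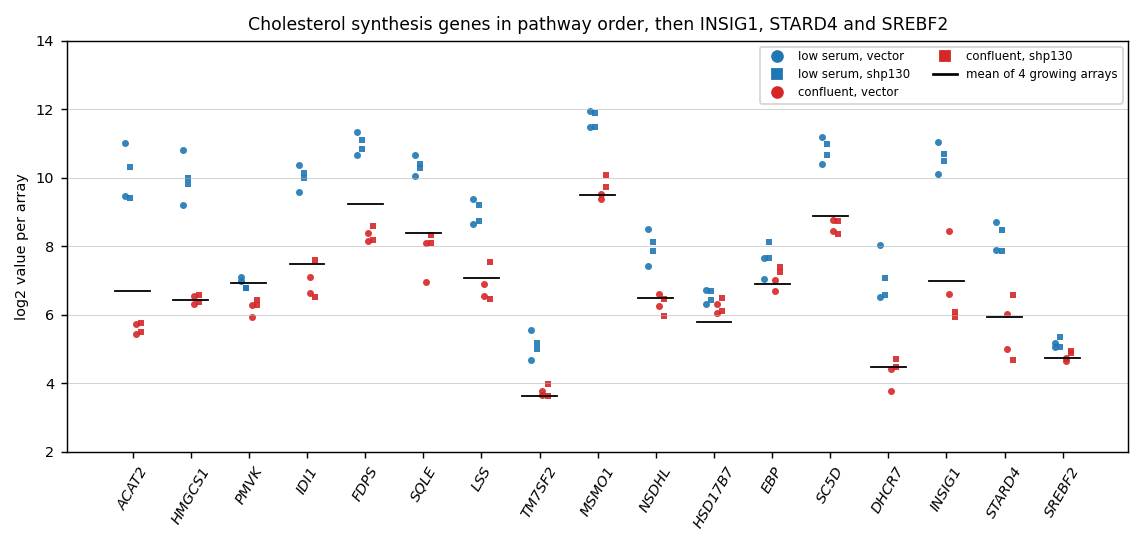
Log2 value on each of the 8 arrays (y axis) for the 17 tested cholesterol genes in pathway order, with low serum in blue, confluence in red and a bar at the mean of the 4 growing arrays. For ACAT2 the 4 confluent arrays lie between 5.44 and 5.75, below the 4 low-serum arrays at 9.42 to 11.01.

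Fatty acid synthesis fell as well, with 9 of 12 members called lower and 0 higher (median -1.24). SCD, the stearoyl-CoA desaturase, read 11.96, 12.35, 12.29 and 11.90 in low serum and 8.81, 8.77, 9.73 and 9.02 at confluence, a fall of 3.04 (SE 0.21, adjusted p = 2.73e-10). LPIN1, a phosphatidate phosphatase, fell by 2.86 (SE 0.28), the elongase ELOVL6 by 1.88 (SE 0.18), the desaturase FADS2 by 1.54 (SE 0.12) and ACACA, the acetyl-CoA carboxylase, by 1.51 (SE 0.21) on the log2 scale. In the list of LXR targets and cholesterol efflux 3 of 7 tested members were called higher and 1 lower (median 0.37). The cholesterol exporters ABCA1 and ABCG1, which LXR induces when sterol is plentiful, rose by 1.53 ± 0.22 and 2.05 ± 0.42. In the same list APOE (0.24 ± 0.18), SMPDL3A (0.37 ± 0.39) and SCARB1 (-0.36 ± 0.19) were not called. NPC1, which moves cholesterol out of lysosomes, rose by 1.70 ± 0.27, while its partner NPC2 fell by 1.15 (SE 0.22) on the log2 scale.

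Contractile and general cytoskeletal genes were taken as 1 list, of which 23 of 28 tested members were called lower at confluence and 0 higher, with a median of -1.05. CNN1 (calponin), which binds actin, read 8.88, 9.80, 9.69 and 9.28 in low serum and 4.47, 5.28, 5.19 and 5.37 at confluence. It fell by 4.33 (SE 0.21, 20.2-fold, adjusted p = 1.12e-12), and growing cells lay between, at 7.88 to 8.62. ACTA2, the smooth muscle actin of myofibroblasts, read 12.80, 12.87, 12.68 and 12.49 and then 8.86, 10.81, 9.29 and 9.61, a fall of 3.06 (SE 0.24, adjusted p = 2.19e-09). ACTG2 fell by 3.07 (SE 0.25), LMOD1, a nucleator of actin filaments, by 2.76 (SE 0.21), the myosin light chain MYL9 by 2.36 (SE 0.29) and TAGLN by 2.12 (SE 0.19) on the log2 scale. ACTA2 and ACTG2 are close paralogs, and their probe sets may not keep them apart.

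Targets of YAP and TEAD, which cell contact restrains, fell in part. Of 23 tested 10 were called lower (43.5%) and 1 higher (4.35%), beside 19.8% and 13.7% of all genes (list median -0.43). AJUBA, a junction-associated scaffold, fell by 2.09 (SE 0.21), MYOF by 1.51 (SE 0.18), CRIM1 by 1.46 (SE 0.22) and the receptor AXL by 1.06 (SE 0.22) on the log2 scale. The targets often used to read the pathway, CCN1 (-0.35 ± 0.18, adjusted p = 0.15) and CCN2 (-0.03 ± 0.16, adjusted p = 0.904), were not called, although CCN1 was without the first confluent vector array (-0.65, adjusted p = 0.00163). GAS6, the ligand of AXL and a gene named for its rise in growth arrest, read 12.72, 13.03, 12.61 and 12.37 in low serum and 6.81, 7.70, 7.66 and 8.19 at confluence. It fell by 5.09 (SE 0.27, 34.1-fold, adjusted p = 7.59e-12), and the confluent arrays also lay below growing cells, at 11.29 to 12.05.

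The extracellular matrix list held 44 tested genes, of which 21 were called lower (47.7%) and 7 higher (15.9%), with a median of -0.40. Over all genes the shares were 19.8% and 13.7%, so the share called higher was near that of all genes. Elastic fibre and cross-linking genes were among the lower. FBLN5 fell by 2.26 (SE 0.43), POSTN (periostin) by 1.69 (SE 0.26) and the lysyl oxidase LOX by 1.19 (SE 0.15) on the log2 scale. The collagen chain COL5A1 fell by 2.07 (SE 0.25) and COL15A1 by 1.87 (SE 0.38). Of the main fibrillar chains, COL1A1 fell by 0.38 (SE 0.12, adjusted p = 0.0189), and its adjusted p was 0.13 without the first confluent vector array, 0.0738 without the first low-serum and 0.0648 without the second confluent shp130 array, and 0.116 when only the arrays compared were fitted. The chains COL1A2 (-0.15 ± 0.14, adjusted p = 0.461) and COL3A1 (-0.18 ± 0.24, adjusted p = 0.613) were not called, although COL1A2 was with the mean of all its probe sets (-0.55, adjusted p = 0.0166). Higher at confluence were THBS2 (thrombospondin 2, 4.40 ± 0.32), COL14A1 (3.14 ± 0.49), COL7A1 (2.30 ± 0.32) and the proteoglycan VCAN (1.03 ± 0.22). SULF1, which trims heparan sulfate chains, read 10.63, 10.03, 10.19 and 10.26 in low serum and 4.41, 5.44, 5.22 and 4.33 at confluence, a fall of 5.43 (SE 0.25, 43-fold, adjusted p = 6.63e-13). Of 15 fibroblast markers 3 were called higher (20%) and 6 lower (40%), beside 13.7% and 19.8% of all genes. Without the first confluent vector array 3 were called lower. TCF21, given above, and PRRX1 (1.25 ± 0.29), both mesenchymal transcription factors, and the receptor PDGFRA (0.65 ± 0.21) were the higher ones. PDGFRA lost its call in 5 of 15 alternatives, 4 of which left out 1 array (adjusted p from 0.0719 to 0.132). FAP, a surface protease, and THY1 fell by 2.88 (SE 0.26) and 1.47 (SE 0.17) on the log2 scale.

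In the WNT list 5 of 10 tested members were called lower (50%) and 1 higher (10%), beside 19.8% and 13.7% of all genes (list median -0.58). ROR1, a receptor for WNT5A that is not in that list, read 9.50, 9.18, 9.01 and 9.50 in low serum and 3.61, 4.59, 4.42 and 4.06 at confluence, and fell by 5.13 (SE 0.36, 35-fold, adjusted p = 4.43e-10). WNT5B fell by 2.31 (SE 0.31), WNT2 by 1.85 (SE 0.31) and the receptor FZD2 by 1.18 (SE 0.18) on the log2 scale, while the ligand WNT5A itself was not called (-0.12 ± 0.13, adjusted p = 0.493). WNT16 rose by 2.06 ± 0.30.

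The list of the integrated stress and unfolded protein responses gave calls in both directions. ASNS, the asparagine synthetase that ATF4 induces, read 11.23, 11.14, 11.17 and 11.04 in low serum and 9.10, 6.58, 7.66 and 7.78 at confluence. It fell by 3.37 (SE 0.38, 10.3-fold, adjusted p = 5.02e-07). PHGDH and PSAT1, successive enzymes of serine synthesis, fell by 3.07 (SE 0.20) and 2.13 (SE 0.23) on the log2 scale, while PSPH, which ends that pathway, was not called (-0.39 ± 0.22, adjusted p = 0.193), except with the mean of its probe sets (-1.18, adjusted p = 1.21e-05). ATF4 itself was not called (-0.07 ± 0.14, adjusted p = 0.735). PPP1R15A, which ends the translational block, rose by 2.04 ± 0.26 and CEBPB by 1.70 ± 0.12, together with the endoplasmic reticulum chaperone DNAJB9 (0.96 ± 0.20). The chaperone HSPA5 (BiP) was not called (0.31 ± 0.16, adjusted p = 0.147), except with the mean of its probe sets (0.90, adjusted p = 0.0184) and without the second confluent vector array (0.56, adjusted p = 0.00317). In that list 6 of 24 members were called higher (25%) and 4 lower (16.7%), beside 13.7% and 19.8% of all genes (list median 0.01). Leaving out a confluent vector array changed the counts to 6 and 7 (first array) or 11 and 4 (second array).

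Among other genes with steep falls, MEST, an imprinted gene of mesoderm, fell by 5.08 (SE 0.52), and TNFSF4 (OX40 ligand) by 4.56 (SE 0.22) on the log2 scale. TNFSF4 read between 8.41 and 9.78 in low serum and between 4.25 and 4.62 at confluence. PDGFD, a ligand of the PDGF receptors, read 9.95, 8.83, 9.58 and 9.66 in low serum and 4.94, 7.95, 6.83 and 5.11 at confluence, a fall of 3.30 (SE 0.45, adjusted p = 5.71e-06). Growing cells held PDGFD at 3.78 to 4.47, so both quiescent states lay above them. The glucose transporter SLC2A1 fell by 2.21 (SE 0.19) and the hepatocyte growth factor receptor MET by 2.28 (SE 0.33) on the log2 scale.

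Few genes of the cell cycle machinery were called between the states. Of 39 tested DNA replication genes 1 was called higher and 2 lower (median 0.06), and of 48 mitosis genes 5 were called higher and 2 lower (median 0.01), both below the share of 33.5% called among all genes. The medians had opposite signs in vector and shp130 cells: -0.24 and 0.32 for DNA replication, and -0.33 and 0.36 for mitosis. The pooled medians average these shifts, and the lists were not tested for a difference between the lines. In the mitosis list the count fell to 2 higher and 1 lower without the first confluent vector array and to 1 and 2 without the second confluent shp130 array. AURKA, the mitotic kinase, fell by 2.04 (SE 0.35) and UHRF1, which carries DNA methylation through replication, by 1.80 (SE 0.34) on the log2 scale. UHRF1 read between 10.15 and 10.51 in growing cells, between 8.15 and 9.07 in low serum and between 6.04 and 7.34 at confluence.

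Regulators of G1 differed gene by gene. CDKN2B (p15), an inhibitor of CDK4 and CDK6, read 7.80, 8.32, 7.40 and 7.85 in low serum and 2.79, 5.95, 3.92 and 2.90 at confluence. It fell by 3.95 (SE 0.49, 15.5-fold, adjusted p = 2.14e-06), and growing cells held it at 2.69 to 2.93, below the array median. The confluent values of 2.79 and 2.90 also lay below the array median. CDK6 fell by 2.13 (SE 0.19) and CCND2 fell by 2.03 (SE 0.38) on the log2 scale, whereas CDK2 rose by 1.76 ± 0.25 from between 6.78 and 6.85 to between 8.06 and 9.18. The inhibitor CDKN1B (p27) had a difference of -0.77 ± 0.30 (adjusted p = 0.0566), just short of a call, and 4 other settings gave adjusted p from 0.00993 to 0.0491. CDKN1A (p21, -0.27 ± 0.17, adjusted p = 0.229), CDKN2A (p16, -0.26 ± 0.16, adjusted p = 0.229), CDKN1C (p57, -0.04 ± 0.22, adjusted p = 0.91), RB1 (-0.01 ± 0.25, adjusted p = 0.971) and RBL1 (-0.20 ± 0.38, adjusted p = 0.723) were not called.

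Ribosome biogenesis genes, a growth function, gave 6 of 17 called higher and 0 lower (median 0.34), beside 13.7% and 19.8% of all genes. The count was 4 (median 0.19) without the first confluent vector array and 8 (median 0.55) without the second. POLR1B, the second largest subunit of RNA polymerase I, rose by 1.56 ± 0.33 and NOB1, which matures the small subunit, by 1.32 ± 0.22. Further lists gave calls in both directions, with shares to be read against those same 13.7% and 19.8%. Higher and lower calls were 2 and 3 of 7 (complement), 2 and 2 of 10 (IGF axis) and 5 and 5 of 16 (PDGF, FGF, HGF and VEGF). They were 4 and 3 of 18 (TGF-beta), 3 and 1 of 10 (glucocorticoid targets) and 3 and 5 of 22 (CDK inhibitors, cyclins and pocket proteins). These counts moved when single confluent arrays were left out. The 2 endothelial markers and 1 epithelial marker tested were not called. For p53 targets 3 of 23 were called higher and 7 lower, with 6 higher after quantile normalization, 1 higher without the first confluent shp130 array, and 5 higher and 4 lower without the first confluent vector array. For NRF2 targets 1 of 12 was called higher and 5 lower. For interferon response genes 1 of 14 was called higher and 4 lower, of which 2 lower calls were left without the first confluent vector array. For lysosome and autophagy genes 3 of 26 were called higher and 7 lower, and 4 lower without the first confluent vector or the second confluent shp130 array. For hypoxia and glycolysis genes 6 of 33 were called higher (18.2%) and 3 lower (9.09%), and a difference from all genes was not tested. For FOXO targets 5 of 13 were called higher and 3 lower with a median of 0.75, which was 0.19 without the second confluent vector array (3 higher), 0.17 without the first confluent shp130 array and 1.13 without the first confluent vector array (1 lower). The lower calls were also 1 without the second confluent shp130 array.

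The same contrast was then examined in the arrays of shRB and shp107 cells, which are not among the members. As the members were chosen with earlier results of these data known, the comparison of the pairs of lines is not independent of that choice. In shRB and shp107 cells the contrast called 796 genes (9.35%), 283 higher (3.33%) and 513 lower (6.03%), with 394 higher and 413 lower after quantile normalization. Leaving out a single array gave between 420 and 1086 genes, and fewest without the first confluent shp107 array. Of these, 491 (61.7%) were also called in the same direction in vector and shp130 cells. A test of the difference between the pairs of lines called 1103 genes (13%), 525 (6.17%) with a more positive and 578 (6.79%) with a more negative difference in vector and shp130 cells. The 507 genes called higher by at least 2-fold in vector and shp130 cells had a median difference of 1.62 there and 0.34 in shRB and shp107 cells, and 325 of them (64.1%) differed between the pairs. For the 720 genes called lower by at least 2-fold the medians were -1.50 and -0.53, and 359 (49.9%) differed. Both sets were chosen for a large difference in vector and shp130 cells, which the test between pairs also uses, so smaller medians in the other lines and a raised share of calls follow in part from the choice and are given as a description.

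Distances between the means of confluent groups were larger across the pairs of lines than within them. The root mean square log2 difference over genes was 0.352 between confluent vector and confluent shp130 cells, and 0.367 between confluent shRB and confluent shp107 cells, but 0.858 and 0.837 from confluent vector cells to confluent shRB and shp107 cells. Low-serum groups of all 4 lines lay between 0.313 and 0.395 of each other. Confluent shp107 cells lay 0.523 from their own low-serum cells, while confluent vector cells lay 0.969 from theirs. The labels give no culture date, density or batch, so the hairpin and any factor of handling that the lines of a pair share cannot be told apart.

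Gene groups fell on either side of that divide. The cholesterol genes were lower at confluence in both pairs of lines: 16 of 17 were called lower in shRB and shp107 cells (median -1.93), and 0 of 17 were called in the test between pairs. HMGCS1 read between 9.15 and 10.88 in low-serum shRB and shp107 cells and between 6.02 and 7.16 in the confluent ones, with a difference between pairs of -0.13 ± 0.42 (adjusted p = 0.89). Fatty acid genes gave 8 of 12 called lower there (median -1.01) and 1 of 12 called between pairs, LPIN1. Of all genes, 6.03% were called lower in shRB and shp107 cells and 13% were called between pairs. With so low a share over all genes, few calls in a short list say little. The absence of calls does not show that the pairs respond alike.

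For the chemokine list, by contrast, the median was 1.20 in shRB and shp107 cells, with 10 of 21 called higher. In 15 of 21 genes the rise was called larger in vector and shp130 cells, and 2, TSLP and CXCL12, were called more negative there. CXCL5 read between 3.12 and 3.36 in low-serum and between 3.99 and 4.38 in confluent shRB and shp107 cells, which is a difference between pairs of 7.46 ± 0.29 (adjusted p = 6.8e-14). IL13RA2 read at most 3.37 in confluent shRB and shp107 cells and PTGS2 at most 4.45, against confluent values above 10 on every vector and shp130 array. CXCL8 did rise in these cells, from between 5.05 and 5.65 to between 10.07 and 10.88, and its difference between pairs was 0.80 ± 0.66 (adjusted p = 0.49). CXCL10, MMP1 and CCL2 also had differences between pairs that were not called (0.67 ± 1.15, 0.56 ± 0.39 and 1.09 ± 0.62).

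**Figure D5:**
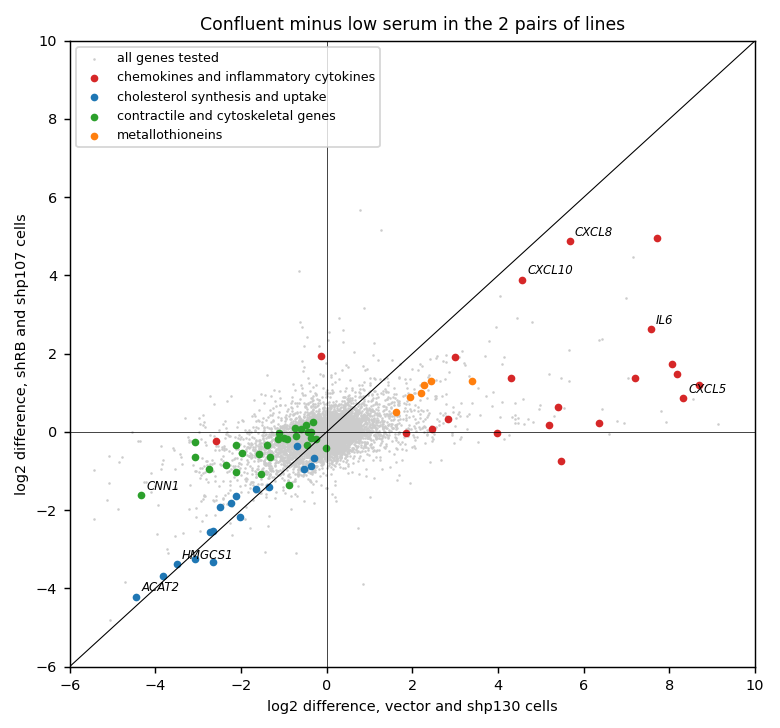
Log2 difference of confluent minus low serum in vector and shp130 cells (x axis) and in shRB and shp107 cells (y axis), 1 point per gene, with 4 gene lists coloured and the line of equality. Cholesterol genes lie along the line (medians -2.23 and -1.93), while most chemokines lie below it (medians 5.41 and 1.20), with CXCL12 and TSLP above it.

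Contractile genes stood with the chemokines. In shRB and shp107 cells 4 of 28 were called lower (median -0.29), and 18 of 28 were called more negative in vector and shp130 cells. ACTA2 read between 12.11 and 12.19 on the confluent shRB and shp107 arrays, above all 4 confluent vector and shp130 arrays, and its difference between pairs was -2.43 ± 0.34 (adjusted p = 4.0e-05). In the matrix list 15 of 44 genes were called more negative and 5 more positive in vector and shp130 cells, and all 6 metallothioneins were called more positive. Of all genes, 6.79% were called more negative and 6.17% more positive. ERK feedback genes gave 0 of 16 called in shRB and shp107 cells (median -0.07), where 9.35% of all genes were called. Of these 16 genes, 5 were called more positive in vector and shp130 cells. TNFSF4 had a difference of 0.00 in shRB and shp107 cells and ELOVL2, an elongase of long polyunsaturated fatty acids, one of -0.22, beside falls of 4.56 and 4.41 in vector and shp130 cells.

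The 578 genes with a more negative difference in vector and shp130 cells include genes that rose at confluence in shRB and shp107 cells. RARRES1, a retinoid-responsive gene, read between 3.78 and 4.99 in their low-serum cells and between 9.89 and 10.50 in their confluent cells, and was not called in vector and shp130 cells (0.77 ± 0.64, adjusted p = 0.392), with confluent values of 4.38, 9.05, 5.43 and 4.13. Without the first confluent vector array it was called higher there too (1.94, adjusted p = 0.00213). SLC14A1, a urea transporter, read between 6.90 and 7.93 in confluent shRB and shp107 cells and at most 3.28 in confluent vector and shp130 cells. Their differences between pairs were -4.90 ± 0.91 (adjusted p = 0.00086) and -4.77 ± 0.52 (adjusted p = 2.0e-06).

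Growing vector and shp130 cells place these differences against the proliferating state. The comparisons of each quiescent state with growing cells share arrays with the comparison above, so only levels are set side by side. Of the 507 genes called at least 2-fold higher at confluence, the mean of the growing arrays lay between the means of both quiescent states for 349, below both for 122 and above both for 36. Of the 720 called at least 2-fold lower it lay between for 521, above both for 135 and below both for 64. CXCL5, at 3.50 to 4.50 in growing cells, and PDK4 stood near their low-serum level there. IL6 (7.61 to 10.81), PTGS2 (5.55 to 8.68), MMP3 (6.76 to 9.43) and STC1 (10.40 to 11.25) lay between the states. MMP1, at 12.15 to 12.45 in growing cells, overlapped the confluent range. ATP8B1, a phospholipid flippase, read between 11.01 and 11.26 in growing and between 10.69 and 11.85 in low-serum cells and between 5.10 and 7.23 at confluence.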

How the data were processed

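The authors deposited log2 values normalized with GCRMA, 1 per probe set and array, per the submitters' processing notes, and the version and its parameters are not given in the sources used here. Per the labels' protocols, biotin-labelled cRNA was made from 1 µg of total RNA. GCRMA sets low probe sets near a common floor, so a fold change from that floor depends on where the floor lies. Among others, this holds for the rises of CXCL5, IL13RA2, PTGS2, EREG and PDK4 and for the fall of CDKN2B. Of 54613 probe sets, 41091 named 1 gene through the platform annotation, 1801 named several and 11721 were not matched. Where a gene had several probe sets, the 1 with the highest mean over all 38 arrays was used. A gene entered the tests when at least 2 arrays of experiment 1 exceeded 5, as 8511 of 19775 did. Listed genes that did not pass are left out of the counts and medians of their lists.

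Group means of all 16 groups of experiment 1 (32 arrays) were fitted with limma 3.58.1 in R 4.3.3 (residual df 16, prior df 4.85), and contrasts were adjusted by Benjamini-Hochberg over all 8511 genes. The hairpin, as part of each group, served as the block. The fit was tested on simulated data with 200 of 8511 genes changed for the contrast of confluence with low serum over vector and shp130 cells, and recovered 74% of 2-fold and 94% of 4-fold changes. The simulated share of changed genes was far below the 33.5% called here, and each gene had the same SD in every group. These rates therefore need not hold for the real arrays. Alternatives were other sets of arrays, quantile normalization, 2 filters, the mean of probe sets, another variance model, a replicate block and leaving out each array. Figures were drawn with matplotlib 3.10.9. The precision is limited by 2 arrays a group.

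Genes were named by a rule: the 20 largest rises and falls without overlap between groups, up to 5 called members of each list, pocket proteins and CDK inhibitors, and the 6 largest differences between pairs of lines in each direction. A further set of list members outside that rule was named for their role after their values were seen. The members, lists and promoter letters were chosen with earlier results of these data known. Senescent cells and experiment 2 were not used here.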

Additional observations from a re-analysis of the deposited data

Results flagged for a closer look

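Among the 4 arrays of a state, 28 of the sets of 4 values examined for lists and named genes held an array far from the other 3 by Dixon's test of the gap divided by the range, the ratio given in parentheses. Chance gives about 1 in 20, and 428 sets were examined. On the confluent side the second vector array was the separate and lowest value for CXCL5 (0.9136), CXCL6 (0.8947), PTGS2 (0.8642), CXCL10 (0.8306), SPRY4 (0.9099), RGS5 (0.8649) and ELOVL6 (0.8537), and the highest for PTGER2 (0.8663). The first confluent shp130 array was apart for SOD2 (0.9467), KYNU (0.8507) and TIMP1 (0.9769), where it was lowest, and for ABCG1 (0.8537), where it was highest. The second confluent shp130 array was lowest for PTGER4 (0.9064), and the first confluent vector array highest for SLC2A1 (0.84).

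On the low-serum side the first vector array was highest for CXCL1 (0.9074), TSLP (0.8918), FOS (0.8642), BMP4 (0.9167) and the mean level of the BMP and ID list (0.9055). The second vector array was highest for CCL7 (0.9492), PTGS2 (0.8372), DUSP1 (0.9575), WNT5B (0.8435) and PPP1R15A (0.9475), and lowest for CXCL3 (0.9942), CSF3 (0.8823) and TCF21 (0.8543). The second shp130 array was lowest for C3 (0.9031). For CXCL3, CCL7, CSF3, C3 and PTGS2 in low serum all 4 values lay near the array median and spanned less than 0.5.

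The difference between confluence and low serum differed between vector and shp130 cells on the one side and shRB and shp107 cells on the other in 1103 genes by limma's test of that difference. The largest such differences toward a higher value in vector and shp130 cells were IL13RA2 (8.93), PTGS2 (7.71), RGS5 (7.67), CXCL3 (7.50), CXCL5 (7.46) and MMP3 (7.28). Those toward a lower value were RARRES1 (-4.90), SLC14A1 (-4.77), TNFSF4 (-4.56), MEST (-4.46), SULF1 (-4.45) and ELOVL2 (-4.18), on the log2 scale.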

How the results depend on the processing

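The count of 2855 genes between confluence and low serum kept within 1.5 times of its value under every alternative run, and ranged from 2295 to 2901 when single arrays were left out. Leaving out single arrays gave 1028 to 1930 genes in vector cells, 971 to 1316 in shp130 cells, 0 to 114 for the difference between these lines, 420 to 1086 in shRB and shp107 cells and 866 to 1558 for the difference between the pairs. Fitting only the arrays compared gave 174 genes in vector cells and 735 between the pairs, and a variance model with trend and robust fitting gave 5 between vector and shp130 cells. Quantile normalization shifted the median gene by 0.04 and changed the split in shRB and shp107 cells to 394 higher and 413 lower. With the replicate letter as a block the count was 2857, and 1825 in vector and 1607 in shp130 cells. The labels do not say what the letter pairs, and deviations of same-lettered arrays correlated at -0.21 in vector and 0.03 in shp130 cells. With the letters crossed, an alternative chosen after seeing the data, vector cells gave 1851 genes. Of 250 named genes 36 changed their call in some alternative, and none changed direction while called. The causes of these changes were not tested.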
